A study of Mus musculus with 4 samples.

Results

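The Mesp1 and Mesp2 locus on mouse chromosome 7 was examined in ATAC-seq data, which record where the transposase Tn5 can enter chromatin, from WT and CTCF-K20R embryoid bodies (EBs) on day 4 after differentiation. All peaks whose summit lay within 100 kb of the transcription start site (TSS) of Mesp1 (chr7:79793788, mm10, minus strand) or Mesp2 (chr7:79810727, plus strand) were taken, in a window of 216.94 kb. The window held 59 peaks in the 4 deposited lists, which merged into 18 of the 80380 regions of all lists when peaks sharing at least 1 bp were joined. The locus was selected on measured values of these lists, namely the rank of the Mesp1 promoter peak within each list and the nearby peaks listed in only one genotype. Values of WT against K20R at the locus are therefore descriptions, and with 2 libraries against 2 no test was made.

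Both genotypes were derived from E14Tg2A, a feeder-grown mouse embryonic stem cell (mESC) line kept in serum with LIF and 2i. In K20R cells, lysine 20 of CTCF, a residue that can be acetylated, was replaced with arginine by CRISPR/Cas9, and the number of clones behind the line is not given in the sources used here. EBs of both genotypes were grown in hanging drops in serum without LIF, and each genotype had 2 libraries, which the study calls biological replicates. EBs mix many cell types, so that fewer cells with an open site and less opening per cell cannot be told apart in these data.

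Mesp1 and Mesp2 encode closely related basic helix-loop-helix transcription factors that lie head to head, here with their TSSs 16939 bp apart. Mesp1 is switched on briefly in mesoderm leaving the primitive streak, including the precursors of the heart, and T-box factors such as Eomes and Brachyury (T) are known to act upstream of it. Mesp2 is best known for setting the segment borders of the presomitic mesoderm, downstream of Notch signalling and Tbx6, and is also expressed in early mesoderm. CTCF is a zinc finger protein that binds a long motif and takes part in chromatin loops.

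The sequences of the sites that the values below turn on are shown first. Each region is given as 300 bases around its strongest summit on the plus strand of mm10. Capitals mark matches to the GATA motif (AGATAA or TGATAA on either strand), and none of these 3 windows held the T-box motif TCACACCT, the TCF-LEF motifs CTTTGAA or CTTTGAT, or the FOXH1 motif TGTGGATT. A site downstream of Mesp1 with a peak only in the WT lists (chr7:79789332-79789631) held 1 GATA match, 55 bp from its summit. A site between the genes with a peak in all lists (chr7:79798853-79799152) also held 1, 39 bp from its summit. The neighbouring site with a peak only in the K20R lists (chr7:79786268-79786567) held none.
WT-restricted site downstream of Mesp1: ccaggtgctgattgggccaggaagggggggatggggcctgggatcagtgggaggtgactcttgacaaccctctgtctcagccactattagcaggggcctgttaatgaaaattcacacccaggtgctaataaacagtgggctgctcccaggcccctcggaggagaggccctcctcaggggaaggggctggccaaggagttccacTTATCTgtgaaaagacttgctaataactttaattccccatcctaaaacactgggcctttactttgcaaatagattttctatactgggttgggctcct
Site between Mesp1 and Mesp2: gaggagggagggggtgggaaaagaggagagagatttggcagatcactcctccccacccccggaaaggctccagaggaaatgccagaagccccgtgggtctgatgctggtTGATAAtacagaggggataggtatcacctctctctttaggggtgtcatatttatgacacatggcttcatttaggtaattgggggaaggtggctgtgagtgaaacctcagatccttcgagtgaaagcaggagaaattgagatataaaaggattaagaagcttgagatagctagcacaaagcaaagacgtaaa
K20R-restricted site downstream of Mesp1: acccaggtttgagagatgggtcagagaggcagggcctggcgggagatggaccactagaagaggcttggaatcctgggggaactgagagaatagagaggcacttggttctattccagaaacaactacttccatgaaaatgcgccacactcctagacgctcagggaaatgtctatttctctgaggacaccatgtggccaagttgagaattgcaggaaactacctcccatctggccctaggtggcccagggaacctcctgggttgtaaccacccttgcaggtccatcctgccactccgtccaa

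For the promoters, the 250 bases before the Mesp2 TSS (chr7:79810477-79810726, plus strand, RefSeq, GRCm38.p6) are shown because the WT peaks covered them and the K20R peaks nearly did not. They held no T-box, TCF-LEF, GATA or FOXH1 match. Matches lay just after the TSS, in the 5′ UTR, where a FOXH1 match was centred 27 bp, a T-box match 134 bp and a GATA match 148 bp into the gene, and the last pair falls in a stretch of 30 bases (chr7:79810854-79810883, plus strand). The TSSs used here are those of GENCODE, and the RefSeq TSS of Mesp1 lies 198 bp inside the GENCODE one, at 79793590, while those of Mesp2 coincide. In Mesp1 a T-box match lay in the GENCODE 5′ UTR, 207 bp after the GENCODE TSS, and is shown in 30 bases on the strand of the gene (chr7:79793567-79793596, minus strand). The 300-base RefSeq promoter window of Mesp1 also held 2 TCF-LEF matches, which lay before the RefSeq TSS but 128 and 170 bp after the GENCODE one. In the 300 bases around the strongest summit of each of the 18 regions, the only CTCF consensus match was in an intron of Wdr93. It is shown in 60 bases (chr7:79780684-79780743, plus strand). Capitals mark the matches.
Mesp2, before the TSS: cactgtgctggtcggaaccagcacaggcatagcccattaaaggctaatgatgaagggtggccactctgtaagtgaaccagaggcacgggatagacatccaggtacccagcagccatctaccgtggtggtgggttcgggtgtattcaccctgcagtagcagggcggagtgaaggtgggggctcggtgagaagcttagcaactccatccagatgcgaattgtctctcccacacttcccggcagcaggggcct
Mesp2, 5′ UTR with T-box and GATA matches: caccTCACACCTttagtccAGATAAaagct
Mesp1, 5′ UTR with T-box match: aggggcccgctTCACACCTagggctcagga
Wdr93 intron with CTCF consensus match: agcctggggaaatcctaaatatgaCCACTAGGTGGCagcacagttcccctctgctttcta

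Such matches are short and describe letters, not binding. Of all 80380 regions, 1.72% held the T-box motif, 1.06% the FOXH1 motif, 9.69% a TCF-LEF motif, 19.0% a GATA motif and 6.22% the CTCF consensus within 300 bases. Of 32851 RefSeq promoters of 300 bases, 1.28% held the T-box motif, 0.855% the FOXH1 motif, 8.65% a TCF-LEF motif, 18.6% a GATA motif and 0.557% the CTCF consensus. Of the 300-base windows around the strongest summits of the 18 regions of the locus, 1 held the T-box motif and 1 the FOXH1 motif. None held a TCF-LEF motif and 4 held a GATA motif. The T-box and TCF-LEF matches of Mesp1 named above lay in the Mesp1 region but outside its window. The E-box CANNTG, the general motif of helix-loop-helix factors, was in 16 of the 18 windows and in 78.8% of those of all regions.

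The number of listed peaks at the locus overlapped between WT and K20R. The WT lists held 14 and 16 peaks in the window, a mean of 15 ± 1.41 (SD, n = 2), and the K20R lists held 14 and 15, a mean of 14.5 ± 0.707 (SD, n = 2). These covered 13.3 and 13.7 kb in WT against 11.96 and 14.5 kb in K20R, so that the genotypes overlapped on both measures. The peak numbers given out between the first and the last of these peaks, however, were 22 and 24 in WT against 15 and 18 in K20R, since 8 in each WT list and 1 and 3 in K20R had been taken out before deposit by a rule not given in the sources used here. The called peaks were thus more numerous in both WT libraries, as they were over the whole genome. There the lists held 59783 and 66703 peaks in WT against 51823 and 55832 in K20R. These were 51.7% and 50.5% of the numbers given out in WT against 58.6% and 60.8% in K20R. In K20R replicate 1 the last listed peak of the window lay 37424 bp from the Mesp2 TSS. The 3 numbers missing between it and the next listed peak are not counted above. Of the 18 regions, 12 were common to all lists, against 47.9% of all regions. One region was WT-restricted (both WT lists and neither K20R list), as were 10.4% of all regions, and 2 were K20R-restricted, as were 3.1% of all regions. The other 3 were in 1 or 3 lists. The first peak beyond the window lay 104036 bp from the Mesp2 TSS in the WT lists, at 45.0 and 21.0 on a scale of rank by −log10 p within the list (100 for the strongest peak), and the outermost peak inside it lay 83481 bp from the Mesp1 TSS, at 89.9 and 90.5.

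**Figure D1:**
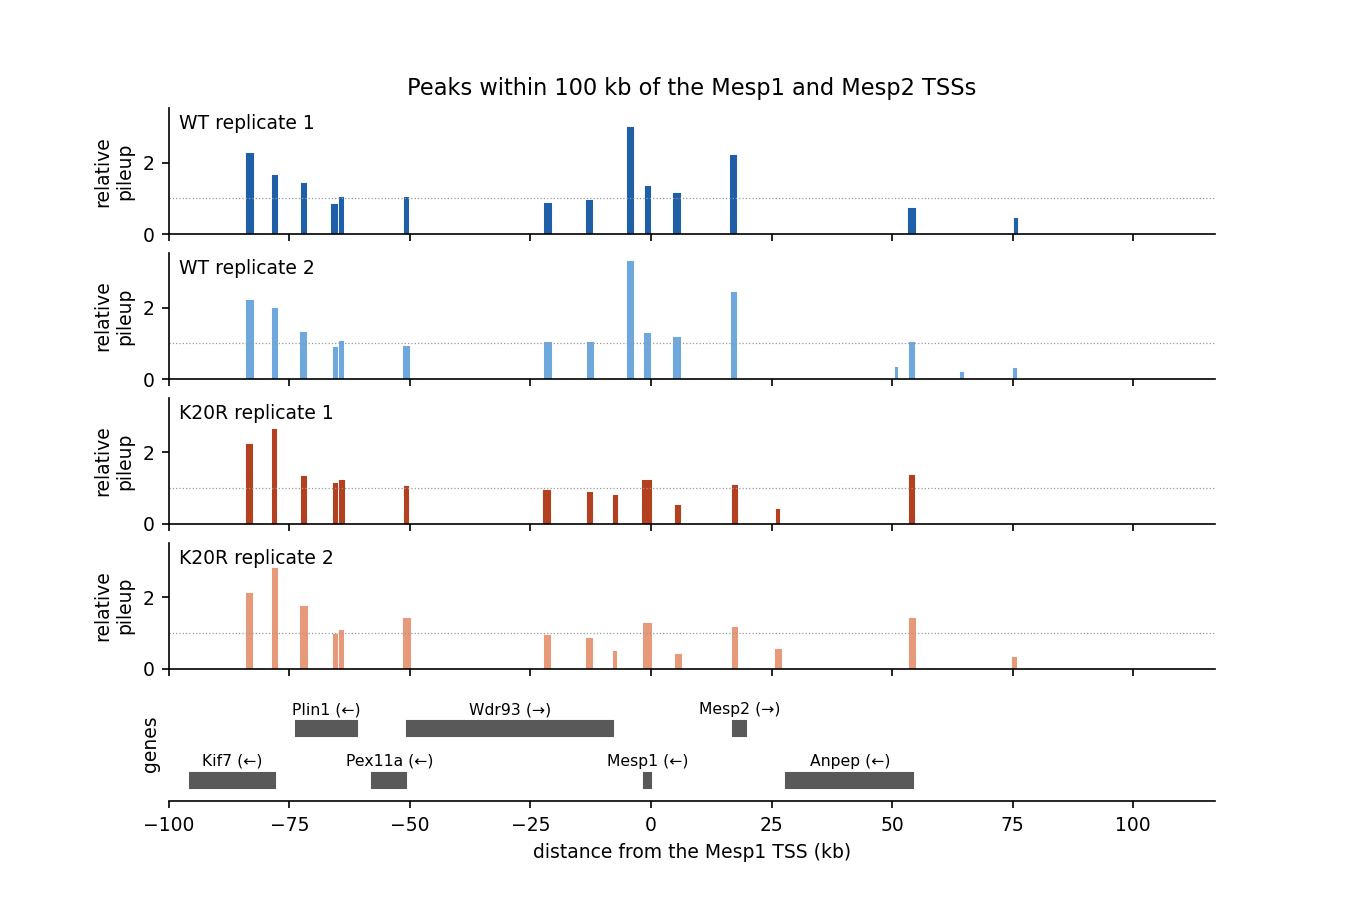
Peaks of the 4 libraries (rows) within 100 kb of the Mesp1 and Mesp2 TSSs, by distance from the Mesp1 TSS in kb (horizontal axis, increasing along the plus strand), with the summit pileup as a multiple of the library's median at common regions (vertical axis, dotted line at 1) and the protein-coding genes below. The tallest WT bar, just downstream of Mesp1, has no K20R counterpart, the Mesp2 bar is shorter in K20R, and the Kif7 bar near −78 kb is taller in K20R.

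Peak strength was read in 3 ways. The percentile is this rank of a peak's −log10 p in its own list. The summit pileup is the number of fragments over the summit, which was recovered as a whole number for 100% of the peaks of every list, and the background is the local level that MACS2 set it against. To compare libraries, pileup and background were divided by the library's median at the 38527 common regions and put on a log2 scale. The median pileups there were 38 and 56 in WT against 39 and 58 in K20R, and the median backgrounds were 5.26 and 6.25 in WT against 5.77 and 6.75 in K20R.

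The site downstream of Mesp1 was among the strongest of the locus in WT and unlisted in K20R. It spanned chr7:79788977-79790013, an intergenic place 4306 bp away from the Mesp1 TSS, on the side of the 3′ end of the gene. Its summits in the WT libraries, at 79789477 and 79789482, were nearly the same base. The pileup was 113 (95% Poisson interval 93.1 to 136) and 183 (157 to 212), the fold over background 6.60 and 8.44, and the percentile 90.4 and 93.9. On the relative log2 scale the pileup was 1.57 and 1.71, above every other peak of the locus in the WT lists. Neither K20R list had a number missing between the neighbouring peaks, so no called peak was taken out there before deposit. At the K20R background next to it, of 7.29 and 7.67, a pileup of 14 and 15 would have been enough for the p of 0.01 at which the lists end. A K20R pileup below that would be at least 3.12 and 3.59 log2 units under the WT mean, if the background at the site was the same as at its neighbour. Peak length does not enter this bound, and the shortest peaks of the K20R lists were 199 and 207 bp. A higher summit in a shorter stretch was not considered.

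Farther from Mesp1 on the same side, only the K20R lists held a weak peak. The region at chr7:79786026-79786668, intergenic and 7370 bp from the Mesp1 TSS, had pileups of 30 (20.2 to 42.8) and 27 (17.8 to 39.3) and percentiles of 55.0 and 41.9 in K20R. Its relative pileup was −0.38 and −1.10, below the median common region in both. No number was missing there in either WT list, so it was uncalled in WT. The WT background at this place is not known. In WT it was 16.3 and 20.8 at the WT-restricted site, and 4.49 and 4.21 at the Wdr93 intron region on the other side. In K20R it was 4.78 and 3.62 at the K20R-restricted region itself. The WT pileup needed for a call was therefore not set, and a lower WT pileup is not shown.

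At Mesp1 itself the rank and the pileup went different ways. The promoter peak, at chr7:79792159-79793729, lay over the body of the gene, with a percentile of 43.5 and 43.4 in WT against 67.3 and 72.4 in K20R, so that the groups did not overlap. The fold over background was 2.62 and 2.79 in WT against 5.79 and 8.42 in K20R. The pileup, however, was 50 (37.1 to 65.9) and 71 (55.5 to 89.6) in WT against 47 (34.5 to 62.5) and 72 (56.3 to 90.7) in K20R, which is alike within counting error for libraries of the same replicate number. On the relative log2 scale it was 0.40 and 0.34 in WT against 0.27 and 0.31 in K20R, a difference of −0.08. What differed was the background, at 18.5 and 24.8 in WT against 7.29 and 7.67 in K20R. The difference in relative background was −1.64 on the log2 scale, and only 43 of the 38527 common regions, or 0.112%, had a lower one. The background is taken from the reads around a peak, and the WT-restricted site lies within a few kb of this peak. Its part in the background was not tested. Ranked by pileup instead of p, the Mesp1 percentile was 5.70 lower in K20R than in WT rather than 26.4 higher.

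The extent of the Mesp1 peak also differed. It was 823 and 936 bp long in WT against 1552 and 1364 bp in K20R, and its upstream edge lay 150 and 225 bp inside the gene in WT against 78 and 59 bp inside in K20R. None of the 4 peaks covered any of the 250 bases before the GENCODE TSS. Of the 250 bases before the RefSeq TSS, they covered 48 and 0 in WT against 120 and 139 in K20R. The summits lay 519 and 577 bp into the gene in WT against 627 and 932 bp in K20R, in coding exon 1 except for the last, which was in the intron. The mean shift of 231.5 bp was smaller than the gap of 305 bp between the K20R replicates.

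The site between the genes was lower in K20R by pileup and by percentile, but not by fold. It spanned chr7:79798584-79799973, in intergenic sequence, 5215 bp upstream of the Mesp1 TSS and 11724 bp upstream of the Mesp2 TSS. The pileup was 43 (31.1 to 57.9) and 65 (50.2 to 82.8) in WT against 20 (12.2 to 30.9) and 23 (14.6 to 34.5) in K20R. Relative pileup was 0.18 and 0.22 in WT against −0.96 and −1.33 in K20R, so that WT was on average 2.54-fold higher and the groups did not overlap. A lower difference was found at 1.98% of the common regions. The percentile was 56.4 and 58.2 in WT against 33.2 and 33.1 in K20R. The background also differed here, at 10.7 and 14.6 in WT against 4.68 and 3.88 in K20R, a relative difference of −1.67 that only 36 common regions, or 0.0934%, went below. The fold over background, in which both enter, overlapped between the genotypes, at 3.77 and 4.24 in WT against 3.69 and 4.92 in K20R, and when the common regions were ranked by fold within each library the site was higher in both K20R libraries.

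The Mesp2 promoter was also lower in K20R, by pileup and by percentile. The peak at chr7:79810403-79811664 had a pileup of 83 (66.1 to 103) and 134 (112 to 159) in WT against 41 (29.4 to 55.6) and 66 (51.0 to 84.0) in K20R. Relative pileup was 1.13 and 1.26 in WT against 0.07 and 0.19 in K20R, with means of 1.19 ± 0.09 and 0.13 ± 0.08 (SD, n = 2). The difference of −1.06 corresponds to a level 2.09-fold higher in WT, and 3.65% of the common regions had a lower difference. The percentile was 90.0 and 93.1 in WT against 67.5 and 74.7 in K20R. The fold over background was 9.31 and 12.2 in WT against 6.67 and 10.8 in K20R, which overlap as they stand. When the common regions were ranked by fold within each library, the Mesp2 peak was lower in both K20R libraries. The background was 8.02 and 10.1 in WT against 5.29 and 5.19 in K20R, a relative difference of −0.90, and 2.00% of the common regions had a lower one.

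The Mesp2 peak moved into the gene in K20R. Its summit was 75 and 81 bp after the TSS in WT, in the 5′ UTR next to the FOXH1, T-box and GATA matches named above, and 439 and 504 bp after it in K20R, in coding exon 1. The mean shift of 393.5 bp exceeded the larger gap between replicates, 65 bp, and 95.8% of the common regions had a smaller one. Over all common regions, the median shift was 34.5 bp and the median of the larger replicate gap was 67 bp. The WT peaks began 324 and 225 bp before the TSS and so covered 250 and 225 of the 250 bases shown. The K20R peaks began 53 bp after and 5 bp before it, and covered none and 5 of these bases.

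**Figure D2:**
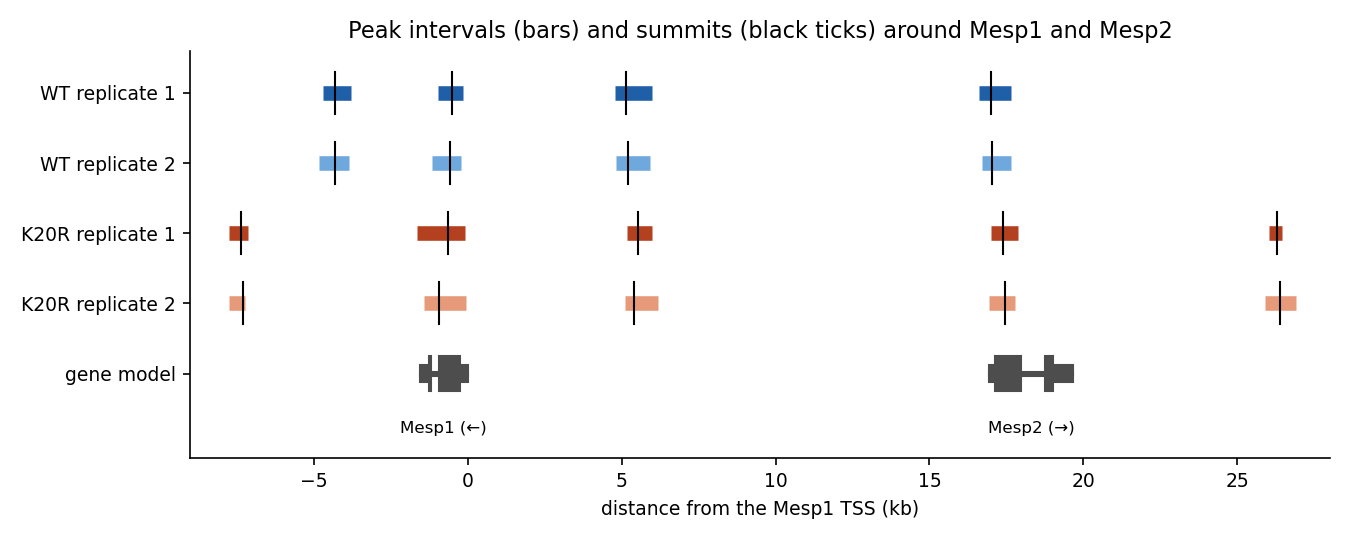
Peak intervals (coloured bars) and summits (black ticks) of the 4 libraries around Mesp1 and Mesp2, by distance from the Mesp1 TSS in kb, with the gene models below (tall boxes, coding sequence; low boxes, UTR). Both WT lists have the site at −4.3 kb and neither has that at −7.4 kb, the reverse holds for K20R, and the Mesp2 peaks begin farther left in WT.

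The lower background in K20R spanned 3 neighbouring common regions of the locus, those at Mesp1, between the genes and at Mesp2. Their relative background differences of −1.64, −1.67 and −0.90 lay below the 5th percentile of all common regions, −0.62, where the median was 0.06. The other 9 common regions of the locus ranged from −0.08 to 0.42. By pileup, the differences at the site between the genes and at Mesp2, −1.35 and −1.06, lay below the 5th percentile of −0.91, and that of Mesp1 did not. Background and pileup were recovered from fold and p, and the locus was chosen on ranks within these lists. Positions among all common regions, here and above, are therefore descriptions only.

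**Figure D3:**
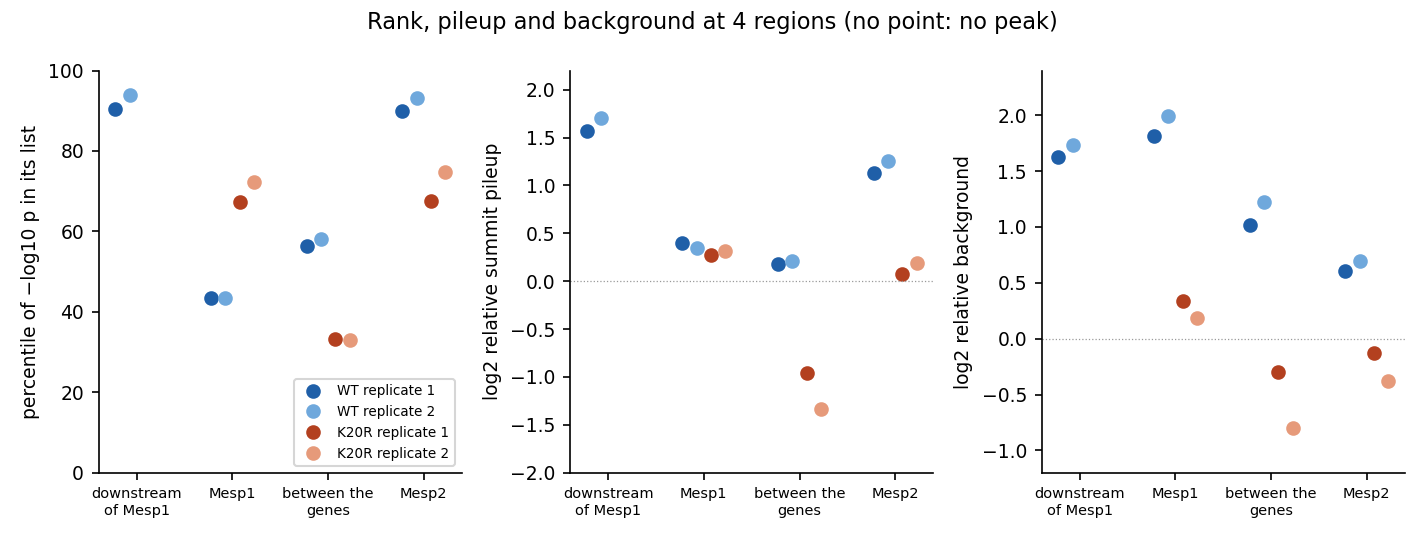
Percentile, log2 relative summit pileup and log2 relative background (vertical axes of the 3 panels) of the sites downstream of Mesp1, at Mesp1, between the genes and at Mesp2, with 1 point per library and no point where a list has no peak. At Mesp1 the K20R percentiles of 67.3 and 72.4 lie above those of WT while the pileups nearly coincide and the K20R backgrounds are the lower ones.

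Beyond Mesp2, a K20R-restricted region at chr7:79819674-79820679, 9449 bp from the Mesp2 TSS, was weak. It had pileups of 15 (8.40 to 24.7) and 31 (21.1 to 44.0) and percentiles of 9.22 and 31.1. Each WT list had 3 numbers missing across this stretch, so a WT peak could have been called there and taken out. The 3 regions in 1 or 3 lists were also weak, with percentiles of 12.2 and 3.83 for the pair listed in WT replicate 2 only. At the first of this pair, 3 numbers were missing in WT replicate 1. At the second, 2, 3 and 2 were missing in WT replicate 1, K20R replicate 1 and K20R replicate 2. The region at chr7:79868780-79869588 had percentiles of 37.4 and 27.2 in WT and 17.5 in K20R replicate 2, with 3 numbers missing in K20R replicate 1. Peaks could have been called and taken out at these places too.

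The promoters of the flanking genes were not lower in K20R. Kif7, which encodes a ciliary kinesin of the Hedgehog pathway, had promoter pileups of 62 and 110 in WT against 102 and 162 in K20R, relative values of 0.71 and 0.97 against 1.39 and 1.48. Its percentiles were 81.7 and 88.8 in WT against 93.1 and 94.4 in K20R, so it was higher in K20R without overlap. Anpep, which encodes the aminopeptidase CD13, had pileups of 27 and 57 in WT against 52 and 81 in K20R, relative values of −0.49 and 0.03 against 0.42 and 0.48. It too was higher in K20R, with percentiles of 49.9 and 70.6 in WT against 75.3 and 79.8 in K20R, though the WT replicates lay far apart. Pex11a, a peroxisome division gene, and Wdr93 share a divergent promoter, whose percentiles of 77.0 and 76.6 in WT against 71.8 and 82.2 in K20R overlapped. Plin1, which encodes a lipid droplet protein of adipocytes, had no promoter peak in any list, though 3 common regions lay in its gene.

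The Wdr93 intron with the CTCF consensus match, chr7:79780411-79781657, was slightly lower in K20R by relative pileup and by percentile, but not by fold. Its pileup was 35 (24.4 to 48.7) and 57 (43.2 to 73.9) in WT against 34 (23.5 to 47.5) and 48 (35.4 to 63.6) in K20R. These intervals overlapped for libraries of the same replicate number. Its relative pileup was −0.12 and 0.03 against −0.20 and −0.27, and its strongest summit lay 72 bp from the match. When the common regions were ranked by fold within each library, the genotypes overlapped here. The difference of −0.19 was small, and 25.0% of the common regions had a lower one.

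Over the 12 common regions of the locus, with percentiles ranked anew among common regions, K20R lay under WT in each pairing of libraries at 4 regions and over it at 5, and 3 overlapped. Over all common regions the shares were 25.5% below and 29.2% above, so the locus as a whole was not one-sided. By relative pileup the counts were also 4 below and 5 above, against 23.6% and 35.6% of all common regions, but the Mesp1 promoter then stood among the 4 below rather than the 5 above. The lower regions by pileup were 4 neighbours among the common regions, namely the Wdr93 intron with the CTCF match, the Mesp1 promoter, the site between the genes and the Mesp2 promoter. The differences at the Wdr93 intron and at Mesp1, −0.19 and −0.08, were small, and 25.0% and 33.4% of all common regions had lower ones. The higher ones lay at the Kif7, Wdr93 and Anpep promoters and in Plin1.

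**Figure D4:**
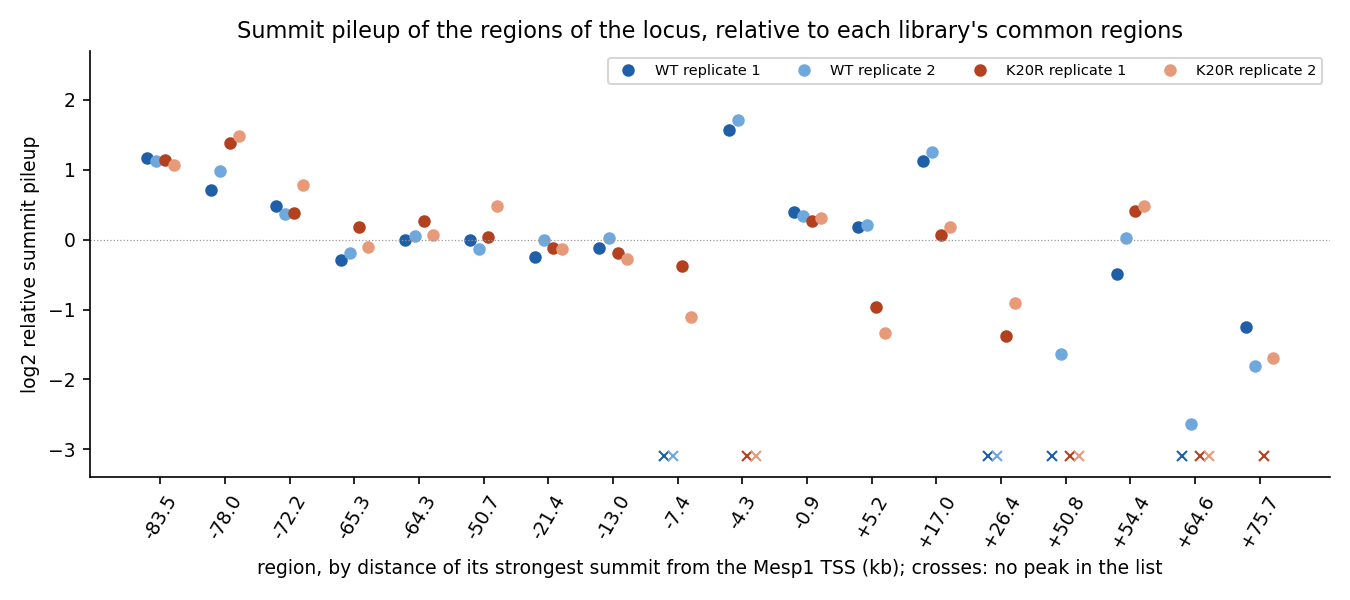
Log2 summit pileup relative to the library's median at common regions (vertical axis) for the 18 regions of the locus in genomic order, labelled by distance from the Mesp1 TSS in kb, with 1 point per library and a cross where a list has no peak. WT points lie above K20R points between −13.0 and +17.0 kb wherever both have peaks. At −13.0 and −0.9 kb the mean differences, K20R minus WT, are small, −0.19 and −0.08. K20R points lie above WT points at −78.0 and +54.4 kb.

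Promoters of genes that act before and after Mesp1 and Mesp2 were then read from the same lists. A promoter peak is the strongest within 1000 bp of a TSS, and 14480 protein-coding genes had one in every list. Among them, percentiles ranked anew over genes were lower in both K20R libraries for 22.9% and higher for 23.8%. The Mesp1 promoter ranked at 3.23 and 3.05 in WT against 17.2 and 20.8 in K20R on that scale, and the Mesp2 promoter at 60.7 and 69.2 in WT against 17.4 and 24.4 in K20R. In K20R both genes thus stood at similar ranks, which they did not in WT. The closest 4-library patterns to Mesp1, by Euclidean distance in these percentiles, were those of Gm12569 (2.56), Papolb (2.66), Scnn1a (3.27), Suds3 (3.54) and Mfsd6l (4.12). Those closest to Mesp2 were Arhgap32 (8.32), Asf1a (9.98), Ift88 (10.3), Mtmr6 (11.2) and Mettl3 (11.5). By log2 pileup relative to the median promoter, the Mesp1 promoter was lower in K20R rather than higher. It stood at −0.57 and −0.62 in WT against −0.75 and −0.78 in K20R.

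Of 13 genes for upstream signals and factors, all had a promoter peak in every list, and by percentile 2 were lower in K20R, 3 were higher and 8 overlapped. The lower ones were T (Brachyury), at 40.5 and 36.9 in WT against 16.6 and 12.7 in K20R, and Mixl1, a homeobox gene of the streak, at 40.2 and 36.9 in WT against 33.1 and 34.0 in K20R. The higher ones were Eomes, at 20.2 and 11.99 in WT against 28.9 and 23.5 in K20R, the ligand Wnt3a, at 1.95 and 2.69 in WT against 4.45 and 4.68 in K20R, and the receptor Notch1, at 24.4 and 26.9 in WT against 57.3 and 30.7 in K20R. By pileup relative to the median promoter, 4 of the 13 were lower and 1 was higher, against 24.2% and 26.3% of all promoters. Their median difference was −0.07 on the log2 scale, against 0.02 over all 14480.

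Of 18 genes for targets and later partners, all had a promoter peak in every list, and by percentile 9 were lower in K20R, 2 were higher and 7 overlapped. Of all promoters, 22.9% were lower and 23.8% higher. The lower ones were the cardiac factors Gata4, Gata6, Hand1, Nkx2-5, Myocd and Tbx20, the Wnt inhibitor Dkk1, and Ripply1 and Lfng of somite segmentation. Gata4 stood at 33.8 and 16.9 in WT against 6.31 and 8.19 in K20R. Gata6 stood at 41.4 and 52.0 in WT against 8.44 and 13.2 in K20R, the larger change of this pair. Lfng, a modifier of Notch, stood at 31.1 and 27.3 in WT against 13.2 and 15.7 in K20R. The higher ones were the receptor Pdgfra, at 39.6 and 35.2 in WT against 56.4 and 58.1 in K20R, and Mef2c, at 9.06 and 11.9 in WT against 19.0 and 15.6 in K20R. By pileup, 11 were lower and 2 higher, against 24.2% and 26.3% of all promoters, with a median difference of −0.29.

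Markers of the cells in the EBs were read in the same way. Over all 14480 promoters, 22.9% were lower and 23.8% higher in K20R by percentile among genes, and 24.2% and 26.3% by pileup. All 9 promoters of streak and early mesoderm markers, some of which are also among the upstream genes, had peaks in every list, and 5 were lower in K20R by percentile and 2 (Eomes and Gsc) higher. By pileup relative to the median promoter, 7 were lower and none higher, with Gsc among the lower ones. All 6 pluripotency promoters had peaks in every list, and none was lower and 3 (Pou5f1, Sox2 and Zfp42) were higher in K20R by percentile, while by pileup 1 was lower and 3 were higher. The median differences in log2 pileup were −0.37 for the streak list and 0.23 for the pluripotency list. Of 8 fibroblast markers, which feeder cells would carry, 4 had promoter peaks in every list and 3 (Col3a1, Lum and Postn) had none in any. Thy1 was lower and Col1a2 higher in K20R by percentile among genes, and the median log2 pileup difference over these 4 was 0.04. The remaining marker, Dcn, stood at percentiles of 67.9 and 77.7 in the WT lists, had no promoter peak in K20R replicate 1 and stood at 24.7 in K20R replicate 2. The part of the cell mixture in the Mesp1 and Mesp2 values was not tested.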

How the data were processed

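ATAC-seq peak lists of 4 libraries (2 WT, 2 K20R, day 4) were analysed, with genotype and replicate taken from the labels. In the study, reads were trimmed with Trim Galore and aligned to mm10 with Bowtie2, reads of low mapping quality, duplicates and blacklisted reads were removed, and peaks were called with MACS2. Each library has its own deposited list. Per the values, the deposited score is a whole-number form of −log10 p. The deposited ratio is the fold of the summit pileup over local background, and the authors' −log10 p and −log10 q columns also refer to the summit. Deposited lists keep 51.7% and 50.5% of the peak numbers in WT and 58.6% and 60.8% in K20R, by a rule not given in the sources used here. Between the first and the last peak of the window, 8 and 8 numbers were missing in WT and 1 and 3 in K20R. Where 0 were missing between 2 neighbouring peaks, none was removed.

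Pileup and background were recovered from fold and p (fold is pileup plus 1 over background plus 1, and p is a Poisson tail) and called whole within 0.02. Read totals are not in the lists, and the relative depth from the lowest backgrounds was 1, 0.976, 1.15 and 1.04. Poisson intervals cover counting error only. A region was assigned to the window by its strongest summit. Genes are those of GENCODE vM21 basic, and all peaks lay within the chromosome lengths of GRCm38.p6, from which sequences were read. Python 3.11.15, pandas 2.3.3 and scipy 1.17.1 were used, and scripts were tested on simulated data. The locus, the gene lists, the rule for named genes (the genes of the window and of the lists and the 5 most similar promoter patterns) and the motifs were chosen with earlier results of these data known. No test was made, since the locus was chosen on this contrast, and an exact permutation test of 2 against 2 libraries cannot pass a threshold of 0.05. Alternatives covered the window, the q threshold, equal list lengths, overlap, missing numbers, the measure, the scaling, the promoter width and leaving out each library.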

Additional observations from a re-analysis of the deposited data

How the results depend on the processing

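Of 84 alternative values, 62 were classed as the same as the value reported, 18 as moved and 4 as changed in sign. The same did not mean equal, and counts could differ by up to 1.5-fold. Common regions lower in K20R were thus 6 without K20R replicate 2, and those higher were 7 without K20R replicate 1. The log2 ratio of K20R to WT peak numbers, −0.05, was within replicate spread and became 0.051 with lists cut to their 51823 strongest peaks, and ranged from −0.14 to 0.051 when each library was left out (0.051 without WT replicate 2). The count of WT-restricted regions was 1, was 2 at −log10 q of at least 5 and at 10, and ranged from 1 to 3 with each library left out (3 without WT replicate 1, 2 without K20R replicate 2). The added region was not the same at the 2 thresholds. At 5 it was the weak region at chr7:79869072-79869588, and at 10 it was the site between the genes, a common region above. The count of K20R-restricted regions was 2, and 1 at −log10 q of at least 5, at 10 and where no number could be missing in WT. The region downstream of Mesp1 stayed WT-restricted and the one 7370 bp from its TSS K20R-restricted under all of these. Common regions lower in K20R numbered 4, and 1 (Mesp2) when ranked by summit fold, by which the site between the genes was higher. Those higher numbered 5, and 2 within 50 kb and 3 at −log10 q of at least 10, where Mesp1 was no longer a common region.

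The Mesp1 percentile difference, 26.4, was 57.5 by fold, 15.9 among genes and −5.70 by pileup, the last added after the data were seen. With each library left out it ranged from 23.9 to 28.9. The Mesp1 pileup difference, −0.08, was −0.17 relative to promoters and 1.40 by fold. The Mesp2 percentile difference, −20.4, was −11.7 by fold, −44.1 among genes and −24.5 by pileup, and its pileup difference, −1.06, was −1.16 relative to promoters and −0.29 by fold. With each library left out these ranged from −24.0 to −16.8 and from −1.13 to −0.998. Mesp2 was lower in K20R under all of them. No paired analysis was possible because the results come from no test. The unstated removal of peaks, the missing read totals and 2 libraries per genotype limit what the lists can show, and a site below the p of 0.01 has no value.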
